A study of Rattus norvegicus with 27 samples.

Results

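The genes followed belong to the postsynaptic side of glutamate synapses: the NMDA receptor subunit genes Grin1, Grin2a, Grin2b and Grin3a, and the scaffold genes Dlg4, Dlgap1, Shank1, Shank2 and Shank3. They were taken from the array by gene symbol, each through the probe set annotated to that symbol alone. Each of the 9 had exactly 1 such probe set. They are 9 of the 18166 genes with a single-symbol probe set, and all 9 were among the 12716 genes bright enough on average to be tested. The RNA came from the hippocampus of male Long Evans rats. Non-ischemic controls (NIC) had a sham operation. The reperfused rats (8R) had 10 min of complete global brain ischemia at normal body temperature, induced by carotid occlusion with lowered blood pressure, and then 8 h of reperfusion. CA1 and CA3 were dissected, and tissue of 5 rats was pooled for each replicate. Part of each pool's supernatant gave total RNA and the rest was spun through sucrose to give polysome RNA, the RNA bound to translating ribosomes. The 8 groups held 3 arrays each for the 4 NIC groups and for 8R CA1 polysome RNA, and 4 arrays each for the other 8R groups, 27 arrays in all. No group carries a transgene. Because each array is a pool, p-values measure the spread between arrays of pooled tissue and not between single rats. The same pools gave arrays of both regions and both fractions, as the pool numbers are read below. The main fit treated all 27 arrays as independent, without pairing.

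NMDA receptors are glutamate-gated cation channels that let calcium in only when the membrane is depolarised and a co-agonist is bound. Grin1 encodes the obligatory subunit that binds the co-agonist. Grin2a and Grin2b encode the glutamate-binding partners, which set the channel's kinetics. Grin3a encodes a subunit that lowers calcium entry. Dlg4 encodes PSD-95, which holds the receptors by their tails. Dlgap1 encodes a linker between PSD-95 and the Shank proteins, and Shank1, Shank2 and Shank3 encode the large scaffolds that connect this layer to the actin cytoskeleton of the spine. CA1 pyramidal neurons are known to die days after brief global ischemia while CA3 neurons mostly survive, and calcium entry through NMDA receptors is a long-studied part of ischemic injury.

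Values are linear probe set intensities as deposited. They were compared as log2(intensity + 16), and a gene was called where the adjusted p of limma (Benjamini-Hochberg over the 12716 genes) was under 0.05. A fold is given on that scale, which understates changes of dim genes. The median intensity of an array lay between 25.6 and 38.1. Because probe sets differ in brightness for reasons other than RNA amount, levels were compared between groups for each gene and never between genes. Markers of the dissected fields were where the labels put them in part. In NIC polysome RNA 5 of 5 tested CA1 pyramidal markers were called higher in CA1 than in CA3, and in total RNA 3 of 5 were, with Wfs1 higher by 1.64. Of 6 tested CA3 pyramidal markers 2 were called lower in CA1 in each fraction. Oligodendrocyte markers (8 tested) were also called higher in NIC CA1 than CA3, 7 in total and 8 in polysome RNA, and Prox1, a dentate granule cell marker, was higher by 0.73 in total RNA. In bulk tissue, fewer cells of a type and less RNA per cell cannot be told apart.

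The groups fell in a similar order for most members. Grin2a had its highest mean in NIC CA1 polysome RNA (490.3 ± 44.9, SD, n = 3) and its lowest in NIC CA3 total RNA (119.8 ± 5.6, n = 3). Grin2b, Dlgap1, Shank1 and Shank3 were likewise highest in NIC CA1 polysome RNA. Grin1 was level between NIC (249.6 ± 14.9, n = 3) and 8R CA1 polysome RNA (249.7 ± 43.1, n = 3), its highest groups. Shank2 was highest in 8R CA1 polysome RNA (134.5 ± 23.7, n = 3), Dlg4 in NIC CA1 total RNA (734.0 ± 21.3, n = 3) and Grin3a in NIC CA3 polysome RNA (47.0 ± 4.4, n = 3). The lowest mean was in NIC CA3 total RNA for Grin1 and Grin2a, in 8R CA1 total RNA for Grin3a, Shank1 and Shank2, in 8R CA3 total RNA for Grin2b, Dlgap1 and Shank3, and in NIC CA3 polysome RNA for Dlg4. With the 8 groups ranked by mean log2 value, most neighbouring groups overlapped in their arrays. The exceptions were the top 2 groups of Grin2b, Dlgap1 and Shank1, the bottom 2 groups of Grin1, and NIC CA1 against NIC CA3 total RNA for Shank2. For Grin2a, Grin3a, Dlg4 and Shank3 every pair of neighbours overlapped.

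**Figure D1:**
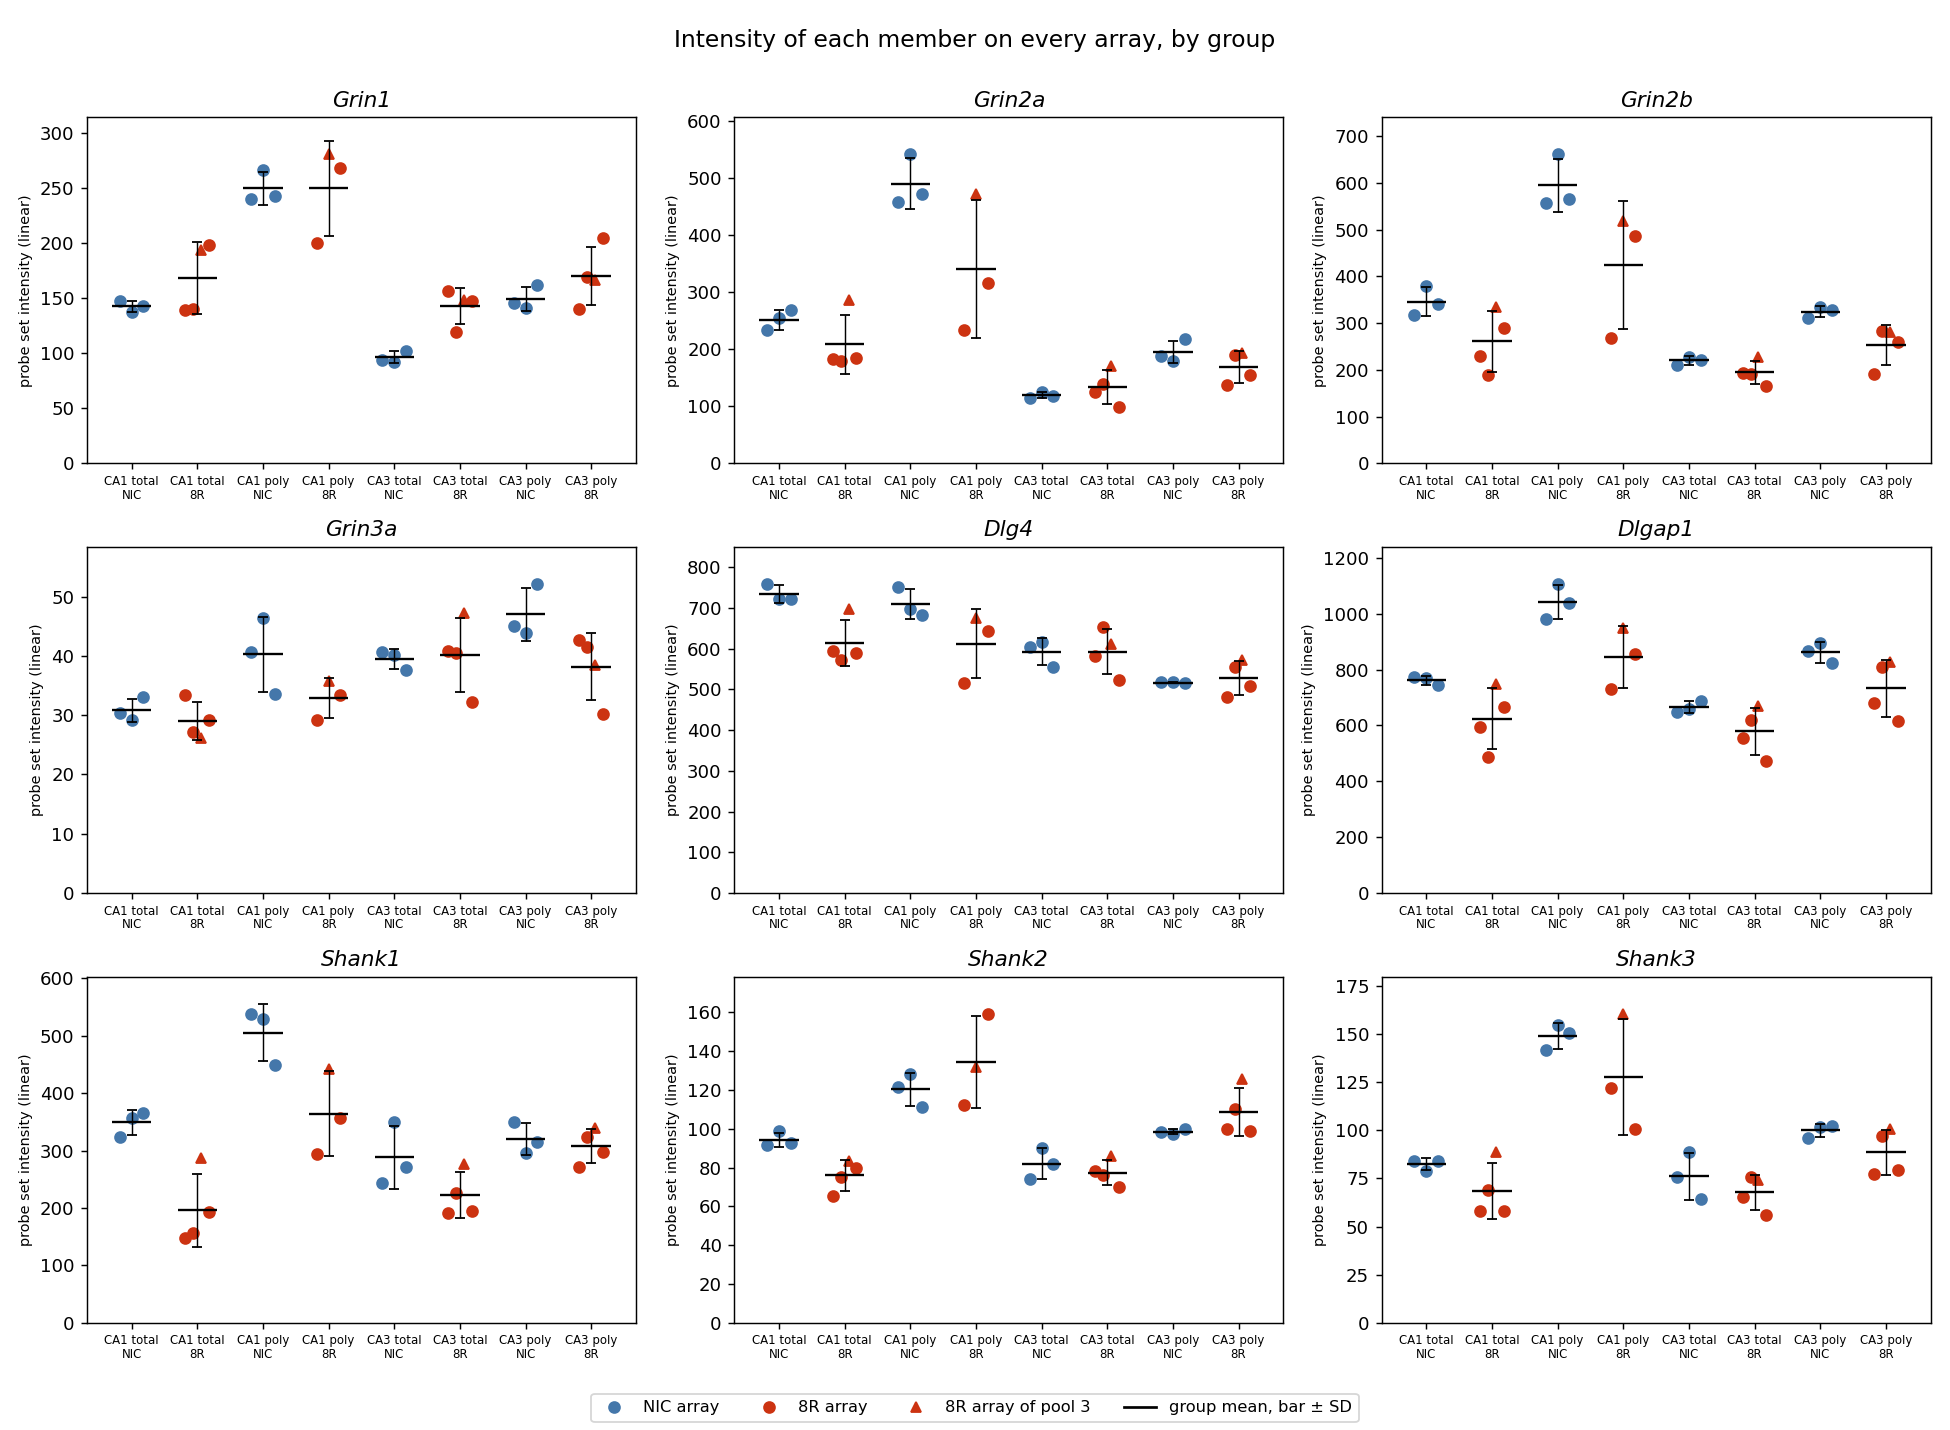
Linear probe set intensity of each of the 9 genes (y axis, from 0) on every array, by group (x axis); black lines are group means with bars of 1 SD, and triangles are 8R arrays of pool 3. Shank1 in CA1 total RNA lies at 324 to 366 in NIC and 148 to 287 in 8R, and Grin1 in CA3 total RNA at 92.05 to 102 in NIC and 119 to 156 in 8R.

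The first question was how reperfused tissue differed from sham tissue, in each region and fraction. In CA1 total RNA Shank1 and Dlg4 were lower in 8R, and no member was called higher. Across all tested genes 20.1% were called higher and 6.15% lower, so 2 of 9 lower stood against that background. The median difference of the members was -0.27, and that of all tested genes 0.04. Of the members' 9 differences 8 were negative, where 7083 of the 12716 tested genes had positive ones. The members were read on the same arrays, so their signs are not independent. Of the 9 members 5 had an unadjusted p under 0.05, all of them negative. The share of all genes at that unadjusted threshold was not counted, here or in the comparisons below. Nor was the share of all genes without overlap between the arrays of the compared groups.

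Shank1 changed most. Its intensity was 324, 358 and 366 on the NIC arrays and 148, 156, 287 and 192 on the 8R arrays of pools 1 to 4. All 8R arrays lay below all NIC arrays, and pool 3 lay nearest to them. The difference was -0.83 ± 0.16 (log2, SE), which is 1.77-fold lower (limma adjusted p = 0.000287). The call held under every alternative tried, with differences from -1.01 to -0.72.

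Dlg4 read 759, 721 and 722 in NIC and 595, 572, 697 and 589 in 8R. The groups did not overlap, and the gap between 697 and 721 was small. The difference was -0.26 ± 0.10, or 1.20-fold lower (limma adjusted p = 0.0461). This call was at the threshold. It was lost without any 1 of 6 of the 7 arrays (adjusted p 0.0837 to 0.137) and held only without 8R replicate 3, and it was also lost with no filter on dim genes (0.0624) and in a fit of these groups alone (0.0734).

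The other 2 Shank genes did not pass. Shank2 read 91.6, 98.6 and 92.6 in NIC and 65.3, 75.1, 83.3 and 80.0 in 8R, without overlap (difference -0.27 ± 0.10, limma adjusted p = 0.0575). Shank3 read 84.2, 79.1 and 84.3 in NIC and 58.0, 69.2, 88.6 and 57.9 in 8R (difference -0.24 ± 0.13, adjusted p = 0.182). Here pool 3 was above every NIC array while the other 8R arrays were below them all. Dlgap1, the linker, read 775, 769 and 744 in NIC and 596, 488, 748 and 667 in 8R (difference -0.30 ± 0.12, limma adjusted p = 0.0716). Only pool 3 reached the NIC range.

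Among the receptor subunits none was called in CA1 total RNA. Grin2b read 317, 379 and 341 in NIC and 230.4, 188, 334 and 290.2 in 8R (difference -0.41 ± 0.17, limma adjusted p = 0.0740, and 0.0494 with the pool as a random block). Grin2a read 233, 255 and 268 in NIC and 182, 179.6, 287 and 185 in 8R (difference -0.28 ± 0.17, adjusted p = 0.243). For Grin2a, pools 1, 2 and 4 lay within a few units of each other below the controls and pool 3 lay above them. Grin1 read 147, 137 and 143 in NIC and 139, 140.1, 194 and 198 in 8R (difference 0.20 ± 0.13, adjusted p = 0.265). Pools 1 and 2 were at the control level and pools 3 and 4 were higher. Grin3a lay between 26.1 and 33.3 over all 7 arrays (difference -0.06 ± 0.10, adjusted p = 0.712) and was near the median intensity of an array.

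Scaling mattered here. After quantile normalization, which forces every array to the same distribution, 7 members were called lower (all but Grin1 and Grin3a) and the share of higher genes among all calls went from 76.6% to 52.7%, with 14.4% of tested genes called lower. Without the 8R arrays of pool 4 the calls were Grin2b, Dlg4, Dlgap1, Shank1 and Shank2, against 11% of all genes. Without those of pool 3 the same 7 as after quantile normalization were called lower, against 7.49% of all genes. Leaving out pool 3 was chosen after seeing the data. Its arrays were the highest 8R arrays for most members, so leaving them out, here and below, favours calls of lower members. Without 8R CA1 total RNA replicate 3 alone, 6 members were called lower, against 7.23%.

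Cell type markers moved in the same comparison. Of 6 neuronal markers 3 were called lower in 8R CA1 total RNA (Rbfox3 by -0.52, Tubb3 by -0.53 and Snap25 by -0.25) and none higher, and the mean log2 level of the list was 9.97 to 10.04 on NIC arrays and 9.73 to 9.98 on 8R arrays. Of 5 CA1 pyramidal markers 2 were called lower and 1 higher, with list means of 7.46 to 7.65 in NIC and 7.13, 7.15, 7.18 and 7.69 in 8R, the last being pool 3. Of 7 astrocyte markers 4 were called higher, Gfap by 0.96, and of 7 microglial markers 3. Of the 6 neuronal markers 2 had positive differences, as had all 5 interneuron markers, with 1 called higher. Of 6 CA3 pyramidal markers 2 were called lower. The part of all these markers in the members' differences was not tested.

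In CA1 polysome RNA no member was called by limma, against 4.87% of all genes higher and 3.46% lower. At an unadjusted p under 0.05, a threshold without a count over all genes, there were 5 members, all negative. Of the 9 differences 8 were negative, with a median of -0.22 against 0.01 for all tested genes. Positive differences were found in 6614 of the 12716 tested genes. The lowest values were on the receptor side. Grin2a read 458, 542 and 472 on the NIC arrays and 234, 472 and 317 on the 8R arrays of pools 1, 3 and 4 (difference -0.56 ± 0.18, limma adjusted p = 0.0599). Grin2b read 556, 661 and 567 in NIC and 267, 518 and 487 in 8R (difference -0.52 ± 0.18, adjusted p = 0.0739). The Grin2b groups did not overlap, while the Grin2a array of pool 3 lay within the control range. Grin1 read 239.7, 267 and 242 in NIC and 200.4, 280.4 and 268 in 8R, with a difference of -0.01 ± 0.14 (adjusted p = 0.974). Its 95% interval ran from -0.29 to 0.27.

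Of the scaffolds in CA1 polysome RNA, Shank1 read 538, 530.0 and 448 in NIC and 295, 442 and 356 in 8R (difference -0.47 ± 0.17, limma adjusted p = 0.0910). Dlgap1 read 983, 1106 and 1038 in NIC and 729, 949 and 857 in 8R (difference -0.30 ± 0.13, adjusted p = 0.153). Dlg4 read 751, 696 and 683 in NIC and 516, 677 and 644 in 8R (difference -0.22 ± 0.10, adjusted p = 0.198). In these 3 genes, none of them called, all 8R arrays lay below all NIC arrays, with pool 3 nearest to them and pool 1 farthest. How many of all genes showed no overlap here was not counted. Shank2 went the other way in its mean, at 122, 128 and 111 in NIC and 112, 132 and 159 in 8R (difference 0.13 ± 0.11, adjusted p = 0.519). Shank3 read 142, 155 and 150.5 in NIC and 122, 161 and 101 in 8R (adjusted p = 0.361), and Grin3a lay between 29.2 and 46.4 over all 6 arrays (adjusted p = 0.288).

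After quantile normalization no member was called in CA1 polysome RNA, against 5.3% of all genes higher and 4.53% lower. There Grin2a was at -0.48 (limma adjusted p = 0.0711), Grin2b at -0.44 (0.123) and Shank1 at -0.37 (0.1575). A fit of the compared groups alone also called none, against 1.31% of all genes lower. With the pool as a random block, Grin2a (-0.55, limma adjusted p = 0.0229), Grin2b (-0.54, 0.0354) and Shank1 (-0.48, 0.0425) were called lower, against 4.95% of all genes. Without 8R CA1 polysome RNA replicate 2, which is the array of pool 3, the same 3 were called (Grin2a at -0.81), against 8.16% of all genes lower. Without all 8R arrays of pool 3, a choice made after seeing the data, Dlgap1 and Shank3 were called as well, 5 members against 8.64% of all genes. Without the 8R arrays of pool 4 Grin2b alone was called, against 3.96% of all genes lower. Of the 6 neuronal markers 3 were called lower in this comparison as well, while all 5 interneuron markers had positive differences, none called. Of 6 CA3 pyramidal markers 3 were called lower.

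In CA3 total RNA the only member called was Grin1, and it was higher in 8R. All tested genes were called higher in 14.2% and lower in 1.34%. The members' median difference was -0.07 (0.09 over all genes), with 6 of 9 negative, where 8280 of the 12716 tested genes had positive differences. Grin1 read 94.2, 92.05 and 102 on the NIC arrays and 156, 119, 148 and 147 on the 8R arrays of pools 1 to 4. The groups did not overlap and the lowest 8R array was pool 2. The difference was 0.50 ± 0.13, or 1.41-fold higher (limma adjusted p = 0.00824), and it was called without each of the 7 arrays (0.45 to 0.57). It was not called after quantile normalization (0.36, adjusted p = 0.0800), which took the share of higher genes among all calls from 91.4% to 59.1%.

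The 250 bases before the start of Grin1, the only member called higher after ischemia, are shown beside those of Shank3, a scaffold member not called in any of the 4 comparisons of 8R with NIC in the fit of all arrays. Both are RefSeq sequences on build GRCr8, in which 5 of the 9 members had an entry. The window of Grin1 is chr3:28528755-28529004 on the minus strand and that of Shank3 is chr7:122448073-122448322 on the plus strand. Both were searched on both strands for the GC box GGGCGG (held by 30.5% of the 33469 promoter windows of this kind), the cAMP response element TGACGTCA (1.6%) and TATAAA (12.9%). Neither window held any of the 3, so no letter is in capitals, and this describes only these letters in these windows.
Grin1: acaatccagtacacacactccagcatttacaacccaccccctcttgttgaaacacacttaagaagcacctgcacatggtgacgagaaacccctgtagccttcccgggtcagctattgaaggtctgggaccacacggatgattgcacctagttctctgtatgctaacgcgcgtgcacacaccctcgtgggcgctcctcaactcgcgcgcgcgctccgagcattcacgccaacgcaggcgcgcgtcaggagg
Shank3: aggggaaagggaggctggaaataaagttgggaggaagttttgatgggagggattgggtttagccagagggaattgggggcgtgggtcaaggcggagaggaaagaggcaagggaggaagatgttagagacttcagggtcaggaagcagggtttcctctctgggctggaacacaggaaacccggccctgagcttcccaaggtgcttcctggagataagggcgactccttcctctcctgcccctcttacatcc
The GC content was 57.6% for Grin1 and 56.0% for Shank3, with a median of 51.2% over all windows.

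The other subunits in CA3 total RNA moved little. Grin2a read 115, 126 and 119 in NIC and 125, 139.6, 171 and 99.2 in 8R (difference 0.12 ± 0.17, limma adjusted p = 0.700). Grin2b read 211, 228 and 222 in NIC and 193, 190.3, 228 and 166 in 8R (difference -0.17 ± 0.17, adjusted p = 0.542). Grin3a lay between 32.1 and 47.3 over the 7 arrays (difference 0.01 ± 0.10, adjusted p = 0.959). In each of these 3 genes the highest array of all was 8R pool 3 or level with it, and the lowest was 8R pool 4.

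Among the scaffolds in CA3 total RNA, Shank1 read 243, 349 and 271 in NIC and 190.6, 226, 277 and 195 in 8R (difference -0.35 ± 0.16, limma adjusted p = 0.146). The controls themselves spread widely, and 8R pool 3 lay among them. Dlgap1 read 650.0, 658 and 689 in NIC and 554, 619, 669 and 474 in 8R (difference -0.21 ± 0.12, adjusted p = 0.276). Dlg4 lay between 524 and 653 over the 7 arrays, and its difference was -0.0015 ± 0.10 with a 95% interval from -0.20 to 0.19. Shank2 and Shank3 had differences of -0.07 and -0.13 (adjusted p = 0.708 and 0.536). After quantile normalization Dlgap1 (-0.35, limma adjusted p = 0.0114) and Shank1 (-0.49, 0.0312) were called lower, 2 of 9 against 5.58% of all genes. Without the 8R arrays of pool 3 Shank1 was called lower (-0.46, 0.0195) beside Grin1, against 1.07% of all genes lower. Neuronal markers had 1 of 6 called lower (Rbfox3) and 1 higher (Syt1) here, and 3 of 7 astrocyte markers were called higher, Gfap by 1.04. Whether these bear on the members was not tested.

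In CA3 polysome RNA no member was called by limma, against 2.38% of all genes higher and 0.275% lower. At an unadjusted p under 0.05, again without a count over all genes, there were Grin2b and Grin3a, both negative. Grin2b read 311, 335 and 327 in NIC and 191, 283, 281 and 260.4 in 8R, without overlap (difference -0.35 ± 0.17, limma adjusted p = 0.265). Grin3a read 45.0, 43.9 and 52.1 in NIC and 42.6, 41.6, 38.4 and 30.2 in 8R, also without overlap (difference -0.22 ± 0.10, adjusted p = 0.243). Grin1, which rose in the total RNA of this region, read 146, 141 and 162 in NIC and 140.2, 169, 167 and 205 in 8R polysome RNA (difference 0.16 ± 0.13, adjusted p = 0.510). Pools 2, 3 and 4 lay above all the NIC arrays of Grin1 and pool 1 below them. Dlgap1 had a difference of -0.24 ± 0.12 (adjusted p = 0.294), and the other 5 members lay between -0.20 and 0.12 with adjusted p from 0.529 to 0.897. No alternative setting brought a member of this comparison past the threshold. Quantile normalization took the share of higher genes among all calls from 89.6% to 73.3%.

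**Figure D2:**
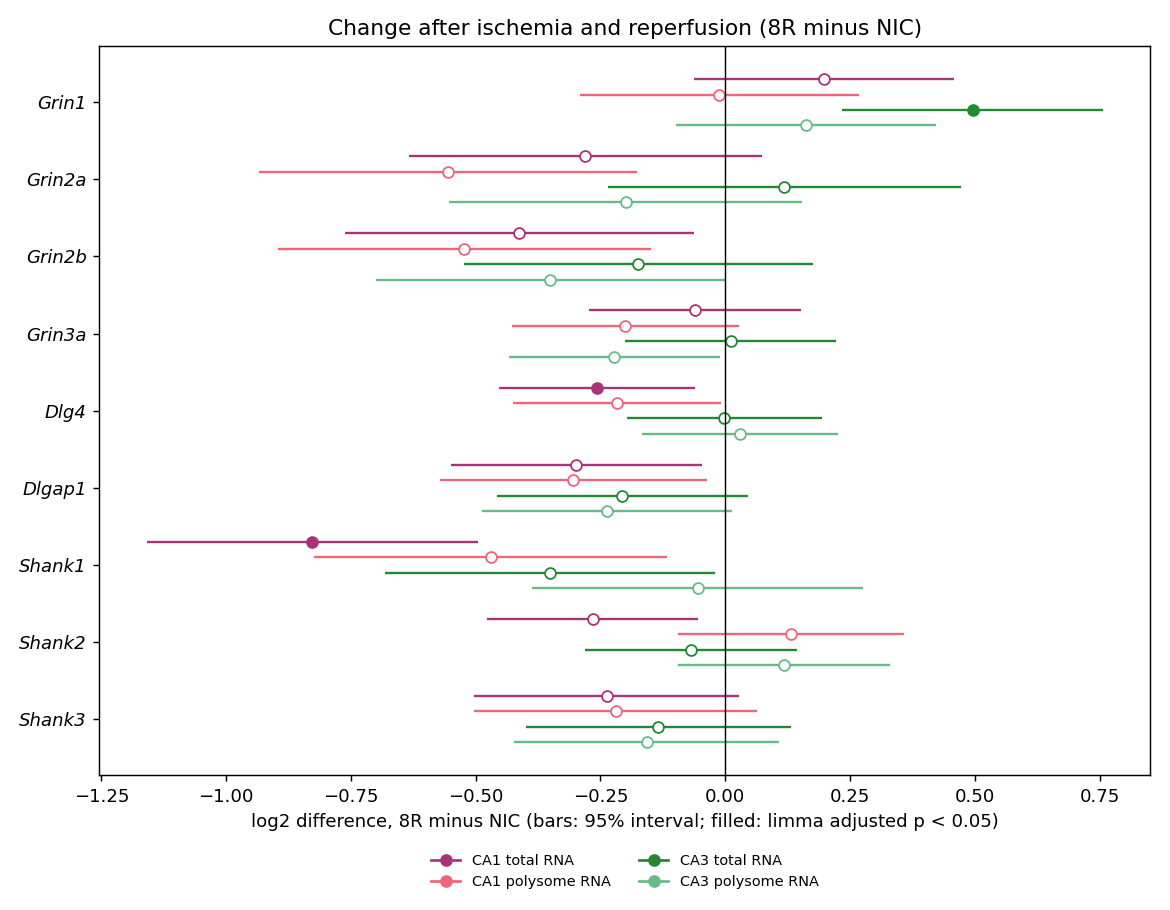
Differences between 8R and NIC (x axis, log2, 8R minus NIC) for each of the 9 genes (y axis) in the 4 combinations of region and fraction; points are fitted differences, bars 95% intervals, and filled points limma adjusted p under 0.05. The 3 filled points are Shank1 (-0.83) and Dlg4 (-0.26) in CA1 total RNA and Grin1 (0.50) in CA3 total RNA.

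Whether the change differed between regions was tested as the CA1 change minus the CA3 change. In total RNA no member was called, where 0.0236% of all genes were called higher and 0% lower. Positive differences were found in 5606 of the 12716 tested genes. All 9 member differences were negative, with a median of -0.24 (-0.03 for all tested genes) and a range of -0.48 to -0.07. They were negative under quantile normalization too, which took the share of higher genes among the few calls from 100% to 50.0%. Shank1 had the largest difference (-0.48 ± 0.23) and the only unadjusted p under 0.05, with a limma adjusted p of 0.948. The change of Shank1 was -0.83 in CA1 and -0.35 in CA3, that of Grin1 0.20 and 0.50, and that of Dlg4 -0.26 and -0.0015, so calls made in one region and not in the other were not shown to differ. In polysome RNA no member was called either, with no unadjusted p under 0.05. Of all genes 0.00786% were called higher and 0.00786% lower. The members' differences ran from -0.41 (Shank1) to 0.02 (Grin3a), 7 of them negative, where 5057 of the 12716 tested genes had positive differences.

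Whether ribosome-bound RNA changed differently from total RNA was tested as the polysome change minus the total change.  In CA1 no member was called by limma, against 0.409% of genes higher and 3.41% lower. Shank2 alone had an unadjusted p under 0.05. Its change was -0.27 in total and 0.13 in polysome RNA, a difference of 0.40 ± 0.15 (limma adjusted p = 0.122). It was called higher with the pool as a random block (0.40, adjusted p = 0.0432) and after quantile normalization (0.53, 0.0476). Quantile normalization also moved the share of higher genes among all calls from 10.7% to 40.5%. Shank1 followed at 0.36 ± 0.24 (adjusted p = 0.371), and the other 7 members ran from -0.27 to 0.04. In CA3 no member was called and none had an unadjusted p under 0.05. Of all genes 0.0550% were called higher and 0.110% lower, and quantile normalization moved the share of higher genes among calls from 33.3% to 57.9%. Grin1 had the most negative difference (-0.33 ± 0.18, limma adjusted p = 0.283), with a change of 0.50 in total and 0.16 in polysome RNA. Shank1 had the most positive (0.30 ± 0.23, adjusted p = 0.445).

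The 8R arrays of pool 3 stood apart for these genes. The pool is the number that ends each sample's description in the labels. In 8R CA1 polysome RNA these numbers are 1, 3 and 4 for replicates 1, 2 and 3, and the labels do not spell out that they name the pool. Read so, pool 3 was the highest 8R array for 27 of its 36 combinations of gene and group, against 3 of 36 for pool 1, 3 of 27 for pool 2 and 3 of 36 for pool 4. The median difference of its members from the NIC mean was -0.04 in CA1 total RNA, -0.07 in CA1 polysome RNA, 0.05 in CA3 total RNA and 0.01 in CA3 polysome RNA. For pool 1 the same medians were -0.41, -0.45, -0.06 and -0.22. Over all tested genes the median difference of pool 3 was 0.11, 0.03, 0.14 and 0.07 in the same order. These were the highest of the 8R pools in both total RNA groups and in neither polysome group. How often pool 3 was highest over all genes was not counted. Over the 782 genes called lower in CA1 total RNA, pool 3 had a median of -0.31 and the other pools -0.37 to -0.58. Over the 2561 called higher it had 0.46, within the 0.43 to 0.59 of the other pools. In CA1 polysome RNA pool 3 was nearest to the controls in both directions, at 0.42 for the genes called higher (0.54 and 0.63 in pools 1 and 4) and -0.28 for those called lower (-0.60 and -0.65). In CA3 total RNA pool 4 was nearest in both directions, at 0.31 and -0.34. The CA1 pyramidal marker level of pool 3 was also the highest 8R value in both CA1 fractions, at 7.69 and 8.11. The other 8R arrays had 7.13 to 7.18 and 7.58, and NIC arrays had 7.46 to 7.65 and 7.91 to 8.07. The part of this marker level in the members' values was not tested.

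**Figure D3:**
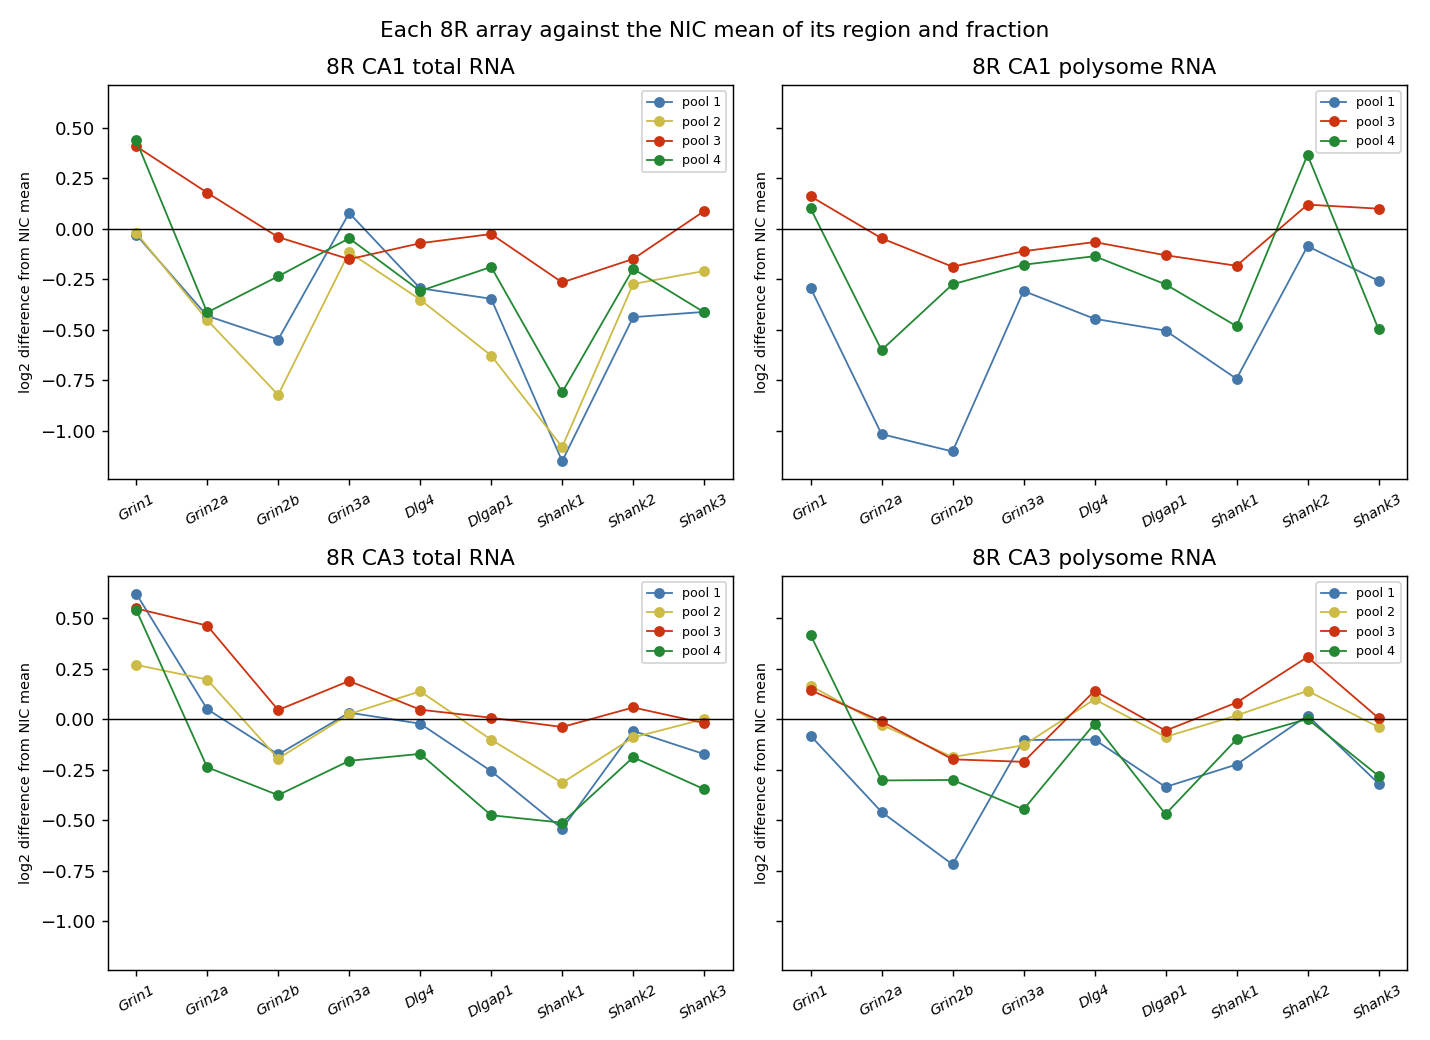
Difference of each 8R array from the NIC mean of its region and fraction (y axis, log2) for the 9 genes (x axis), with a line for each pool joining its own values; 8R CA1 polysome RNA has no pool 2. The red line of pool 3 lies above the others for most genes, and for Shank1 in CA1 total RNA it is at -0.27 where pool 1 is at -1.15.

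In controls, most members were higher in polysome RNA than in total RNA of CA1. All tested genes together were shifted by 0.20 in this comparison (their median), with 39.4% called higher and 4.62% lower, so differences are given with that shift and after its subtraction. Of the 9 members 7 were called higher and none lower. Grin2a was higher by 0.92 ± 0.18 (limma adjusted p = 0.000189), 0.71 above the shift, with 233, 255 and 268 in total against 458, 542 and 472 in polysome RNA. Grin2b was higher by 0.76 (0.55 above the shift), Grin1 by 0.74 (0.54) and Shank3 by 0.74 (0.54). In these 4 genes all polysome arrays lay above all total RNA arrays, as they did in every other member but Dlg4. The share of all genes without overlap was not counted. Shank1 (0.51), Dlgap1 (0.44) and Shank2 (0.31) were closer to the shift, at 0.31, 0.24 and 0.10 above it. Shank2 lost its call without NIC CA1 polysome replicate 1 (limma adjusted p = 0.0610) or 2 (0.0981), or total replicate 1 (0.0708) or 3 (0.0656), and Shank1 without polysome replicate 1 (0.0611) or 2 (0.0562), or total replicate 1 (0.0630). Grin3a was at 0.26 (adjusted p = 0.0577, but 0.0342 with the pool as a block, 0.0228 without polysome replicate 3).

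Dlg4 was the member without such a rise. It read 759, 721 and 722 in total and 751, 696 and 683 in polysome RNA of NIC CA1. The difference was -0.05 ± 0.10 (limma adjusted p = 0.743), or -0.25 relative to the shift. After quantile normalization, where the median of all genes was 0.01 and the share of higher genes among all calls went from 89.5% to 56.7%, Dlg4 was called lower (-0.35, adjusted p = 0.00131), only Grin2a (0.54) and Shank3 (0.44) were called higher, and Grin1, Grin2b, Dlgap1, Shank1 and Shank2 were not called.

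In NIC CA3 the same comparison carried almost no shift of all genes (median -0.0039, 21.5% called higher and 16.9% lower). Grin2a was higher in polysome RNA by 0.63 ± 0.18 (limma adjusted p = 0.00844), at 188, 179 and 217 against 115, 126 and 119. Grin1 was higher by 0.56 ± 0.14 (0.00210), at 146, 141 and 162 against 94.2, 92.05 and 102. Grin2b was higher by 0.53 (0.0237) and Dlgap1 by 0.36 (0.0291). The fractions did not overlap in these 4 genes, nor in Shank2, Shank3 and Grin3a, which were not called. How many of all genes showed no overlap was not counted. The call of Dlgap1 was lost without polysome replicate 1 (0.0658) or 2 (0.0874) or total replicate 1 (0.0762) or 2 (0.0703), and that of Grin2b without polysome replicate 2 (0.0658) or 3 (0.0592) or total replicate 1 (0.0685) or 3 (0.0523). Shank3 (0.34, adjusted p = 0.0520, and 0.00985 with the block, 0.0318 without total replicate 2), Shank2 (0.23), Grin3a (0.18) and Shank1 (0.16) were not called. Dlg4 alone had a negative difference, at 517, 518 and 515 in polysome against 605, 617 and 555 in total RNA (difference -0.19 ± 0.10, adjusted p = 0.141). Its arrays did not overlap, and it was called lower in the fit of these groups alone (adjusted p = 0.0131) and after quantile normalization (-0.33, 0.00228). Quantile normalization also gave Shank1 a sign below 0 (-0.03) and ended the calls of Grin2b and Dlgap1.

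Between control regions, Grin2a and Grin1 were higher in CA1 than in CA3 total RNA, where 2.41% of all genes were called higher and 1.06% lower. Grin2a was higher by 0.98 ± 0.18, or 1.97-fold (limma adjusted p = 0.00135), with 233, 255 and 268 in CA1 against 115, 126 and 119 in CA3. No array overlapped, and the call held without each of the 6 arrays (0.94 to 1.03). Grin1 was higher by 0.50 ± 0.14, or 1.41-fold (adjusted p = 0.0346), with 147, 137 and 143 against 94.2, 92.05 and 102. The call of Grin1 was lost without any 1 of the 6 arrays (adjusted p 0.0713 to 0.130). Grin2b (0.61 ± 0.18, adjusted p = 0.0608) and Dlg4 (0.30 ± 0.10, 0.111) were not called, although their arrays did not overlap. Both were called with the pool as a random block (0.00575 and 0.0219), without the 8R arrays of pool 4 (0.0190 and 0.0306) and in a fit of these groups alone (8.87e-05 and 0.00598), where 4.61%, 4.85% and 6.31% of all genes were called higher. Dlgap1, Shank1, Shank2 and Shank3 had differences of 0.10 to 0.28. Grin3a was the only one with its mean lower in CA1 (-0.25 ± 0.11, adjusted p = 0.314), at 30.3, 29.1 and 33.0 against 40.7, 40.2 and 37.6 in CA3, without overlap. Quantile normalization moved the share of higher genes among all calls from 69.4% to 58.2% and added the call of Dlg4 (0.27, adjusted p = 0.0446).

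In polysome RNA the CA1 to CA3 difference of controls carried a shift of all genes of 0.23, with 27.7% called higher and 0.731% lower. Of the 9 members 6 were called higher in CA1. Grin2a was higher by 1.26 ± 0.18, or 2.40-fold (limma adjusted p = 1.95e-05), 1.03 above the shift, with 458, 542 and 472 in CA1 against 188, 179 and 217 in CA3. Grin2b was higher by 0.84 ± 0.18 (adjusted p = 0.00164), 0.61 above the shift, with 556, 661 and 567 against 311, 335 and 327. These 2 were also called after quantile normalization (1.03 and 0.64). Grin1 (0.68), Shank1 (0.63), Shank3 (0.51) and Dlg4 (0.45) were 0.45, 0.40, 0.28 and 0.22 above the shift and were not called after it, where the share of higher genes among all calls went from 97.4% to 58.9%. Dlgap1 (0.27) and Shank2 (0.25) were at the shift, and Grin3a was negative (-0.17 ± 0.11, adjusted p = 0.239). With the block Dlgap1 and Shank2 were called too (adjusted p = 0.0440 and 0.0377), 8 of 9 members against 41.5% of all genes. Oligodendrocyte and CA1 pyramidal markers were higher in the same comparison (8 of 8 and 5 of 5 called), as were 2 of 6 neuronal markers, and their part was not tested.

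**Figure D4:**
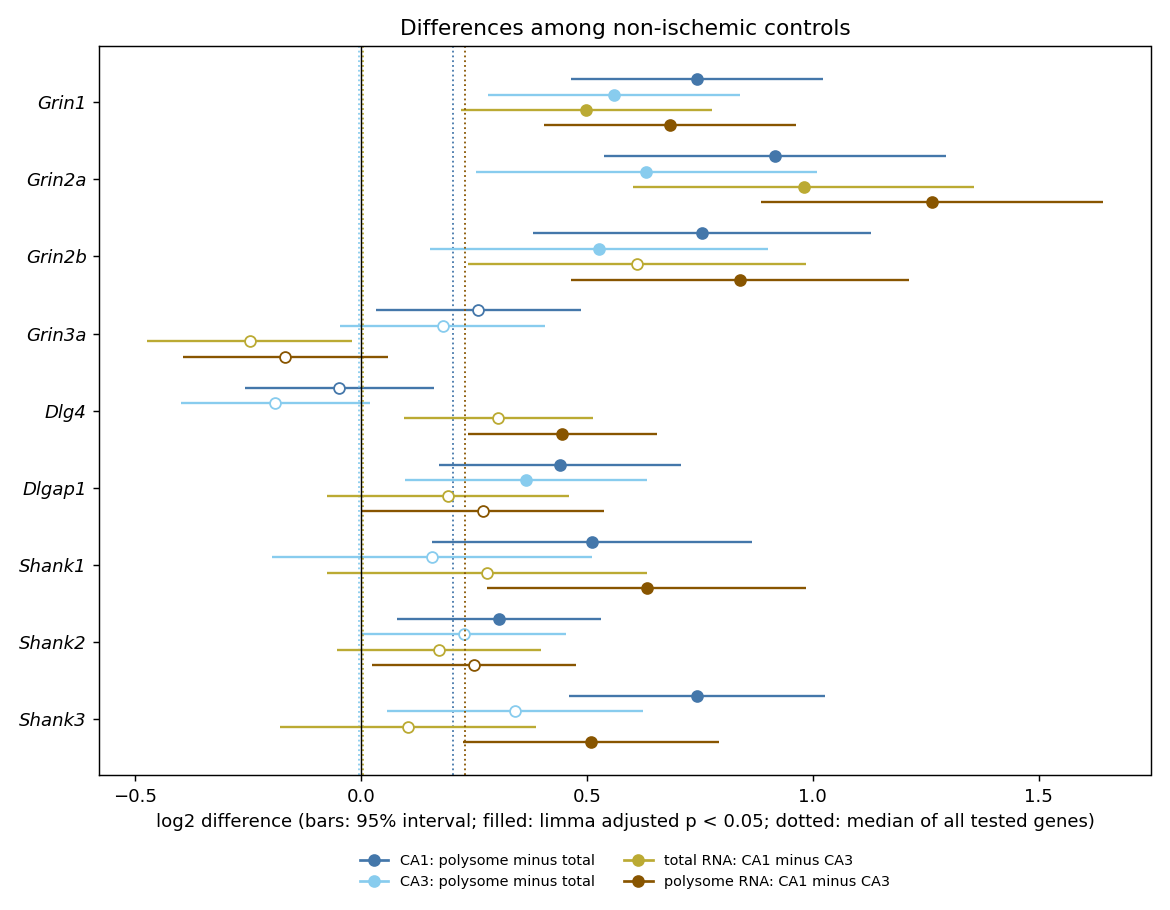
Differences among NIC arrays (x axis, log2) for each of the 9 genes (y axis), polysome minus total RNA in each region and CA1 minus CA3 in each fraction; points are fitted differences, bars 95% intervals, filled points limma adjusted p under 0.05, and dotted lines the median of all tested genes. Grin2a is the farthest to the right, at 1.26 for CA1 minus CA3 in polysome RNA, and Dlg4 is left of 0 for polysome minus total RNA in both regions (-0.05 and -0.19).

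The members varied together to different degrees. Over the 27 arrays the log2 values of Grin2a and Grin2b had a Pearson r of 0.94, and of 0.82 with the group means removed. Grin3a had an r between -0.25 and 0.32 with the other 8 members. The arrays share groups and pools, so these values describe the arrays and carry no test. The genes with the most similar profiles, the 3 highest r for each member, were Kcnd2 (0.98), Rasgrp1 and Arhgef2 for Grin2a, Tnr (0.96), Plppr4 and Rimbp2 for Grin2b, Atp2a2 (0.96), App and Psap for Grin1, and Usp29 (0.85), Fgf12 and Mgat4c for Grin3a. For the scaffolds they were B3gat1 (0.90), Ddn and Rab40b for Dlg4, Cyfip2 (0.95), Strn4 and Camk2b for Dlgap1, Ksr1 (0.95), Rin1 and Phyhip for Shank1, Rexo1 (0.91), Cad and Fam120a for Shank2, and Git2 (0.95), Mast3 and Exoc7 for Shank3.

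Other genes of the postsynaptic density were read from a list of 25, of which 20 were tested. In CA1 total RNA 8 were called lower in 8R and 1 higher, with a list median of -0.20 (0.04 for all genes), where 6.15% of all genes were called lower and 20.1% higher. The 3 largest falls were those of Dlgap4, a paralog of Dlgap1 (-0.70 ± 0.11, limma adjusted p = 3.44e-05), Iqsec2, an ARF exchange factor of the density (-0.69 ± 0.17, 0.00319), and Nlgn2, an adhesion protein of inhibitory synapses (-0.62 ± 0.16, 0.00377). Dlg1, a paralog of Dlg4, was the 1 called higher (0.50 ± 0.12, 0.00240). In CA1 polysome RNA 3 were called lower and none higher: Cnksr2 (-0.46), Camk2b, the beta subunit of the calcium and calmodulin kinase (-0.44), and Dlg2, another paralog of Dlg4 (-0.35, limma adjusted p = 0.04998, at the threshold). Of all genes 3.46% were called lower there. In CA3 total RNA Dlg1 was again higher (0.54 ± 0.12, limma adjusted p = 0.00295) and Dlgap4 lower (-0.42 ± 0.11, 0.0124), against 14.2% and 1.34% of all genes. In CA3 polysome RNA limma called none, against 2.38% of all genes higher and 0.275% lower. There 5 had an unadjusted p under 0.05, a threshold without a count over all genes.

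In controls 14 of the 20 were called higher in CA1 polysome than total RNA and none lower, with a list median of 0.46 against the shift of 0.20, where 39.4% of all genes were called higher and 4.62% lower. In CA3 11 were called higher and none lower, with a median of 0.36, against 21.5% and 16.9% of all genes. Between regions 1 was called higher in CA1 total RNA (Baiap2, 0.46) and 1 lower (Nos1, neuronal nitric oxide synthase, -0.72), against 2.41% and 1.06% of all genes. In polysome RNA 12 were called higher and 1 lower, Nos1 again (-0.63), against 27.7% and 0.731% of all genes. The list median there was 0.41 and the shift of all genes 0.23, and calls over all genes fell from 3609 to 581 after quantile normalization. Of the other NMDA receptor subunits only Grin2c was bright enough to be tested, and Grin2d and Grin3b were not. Grin2c, a glutamate-binding subunit, had differences between 8R and NIC of -0.07 to -0.01 with none called, and was called higher in CA1 than CA3 polysome RNA of controls (0.33 ± 0.12, limma adjusted p = 0.0352), 0.23 of which is the shift of all genes.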

How the data were processed

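Total and polysome RNA of CA1 and CA3 were measured on Affymetrix Rat Gene 2.0 arrays. The deposited values are linear probe set intensities made with PLIER in Affymetrix Expression Console, per the submitters' processing notes, while background correction, normalization and software versions were not given in the sources used here. Of 36685 probe sets 18511 carried 1 gene symbol, 575 several and 17599 none, and the brightest single-symbol probe set stood for each of 18166 genes. Intensities were used as log2(intensity + 16), which damps differences of dim genes, and genes with a mean under the 30th percentile (5.39 on the log2 scale) were left out, which left 12716. One limma fit (limma 3.58.1, R 4.3.3, empirical Bayes with an intensity trend) gave 8 group means over 27 arrays and all contrasts, with Benjamini-Hochberg adjustment over all tested genes. The fit was tested on simulated data. The 27 arrays, with 3 or 4 in a group, limit the precision.

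All 9 members are named, with the 3 genes of most similar profile for each. The members and gene lists were chosen with earlier results of these data known. By the series' design, total and polysome RNA of a pool come from the same rats, and the number ending each sample's description was read as the pool. Correlations of their deviations from the group means were 0.28 to 0.77 in 8R and -0.04 to 0.22 in NIC. Between CA1 and CA3 arrays of the same pool number they were 0.12 to 0.78 in 8R and -0.02 to 0.10 in NIC. The main fit had no block, and the pool within condition was used as a random block in an alternative. The other alternatives were a pseudocount of 1, no filter, quantile normalization, the mean of all probe sets, the compared groups alone, leaving out each array, and leaving out the 8R arrays of pool 4 or, chosen after seeing the data, of pool 3. The background correction could not be varied from these values.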

Additional observations from a re-analysis of the deposited data

Results flagged for a closer look

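Grin2a in 8R CA1 total RNA had 1 array far from the others. Replicate 3, of pool 3, had an intensity of 287, and the other 3 arrays had 182, 179.6 and 185. Its gap to the nearest array was 0.94 of the range of the group. This was the only such array among the 27 combinations of gene and group with 4 arrays, although 27 were looked at and chance gives about 1 in 20.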

How the results depend on the processing

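Counts of members called depended on the scaling and on single pools, and no call changed direction. For 8R against NIC in CA1 total RNA, 2 members were called, against 1 with no filter, 7 after quantile normalization, 5 without the 8R arrays of pool 4, 7 without those of pool 3 and 1 to 6 with 1 array left out. In CA1 polysome RNA 0 were called, against 3 with the pool as a replicate block, 1 without pool 4, 5 without pool 3 and 0 to 3 with 1 array left out. In CA3 total RNA 1 was called, against 2 after quantile normalization (both lower), 2 without pool 3 and 1 with any 1 array left out. The CA1 polysome change minus total change had 0, against 1 after quantile normalization and 1 with the block. Polysome against total RNA in NIC CA1 had 7, against 3 after quantile normalization and 5 to 8 with 1 array left out. In NIC CA3 it had 4, against 7 in a fit of the compared groups alone and 2 to 4 with 1 array left out. CA1 against CA3 in NIC total RNA had 2, against 4 with the block, 4 without pool 4, 4 in the fit of the compared groups alone and 1 with any 1 array left out. In NIC polysome RNA it had 6, against 2 after quantile normalization and 6 with any 1 array left out. The other comparisons had 0 under every alternative tried. The block changed no member's call other than those given beside the results.

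Of 1809 member values under the alternatives, 1706 kept direction and side of the threshold (or were not called in either), 62 gained a call and 41 lost one. Over all genes, the calls moved by more than 1.5 times in CA1 polysome RNA (1059, against 1831 without pool 3 and 452 in the compared groups alone), CA3 total RNA (1975, against 4362 without pool 4 and 1300 without pool 3), CA3 polysome RNA (338, against 150 after quantile normalization and 147 in the compared groups alone), the CA1 (486, against 1792 with the block and 1092 without pool 4) and CA3 (21, against 3 without pool 3, 12 in the compared groups alone, 32 with a pseudocount of 1, 34 with no filter, 1258 without pool 4 and 1356 with the block) polysome minus total changes, the CA1 minus CA3 changes (3 in total RNA, against 2 to 16, and 2 in polysome RNA, against 0 to 4), NIC total RNA (441, against 694, 906, 1026 and 1255 after quantile normalization, with the block, without pool 4 and in the compared groups alone) and NIC polysome RNA (3609, against 581 after quantile normalization, 5452 without pool 4 and 5543 in the compared groups alone). The cause was not tested. Grin3a lay near the median intensity of an array, where the added constant damps differences more than in the brighter members.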
